A study of Mus musculus with 4 samples.

Results

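Tumor neutrophils were examined in single-cell RNA sequencing of sorted leukocytes from KPC pancreatic tumors. They were chosen by the cells' own counts of marker genes, not by a deposited annotation. A cell counted as a neutrophil when it held at least 10 unique molecular identifiers (UMIs, each standing for 1 captured RNA molecule) of S100a8 and S100a9 together and at least 2 of the 4 genes Csf3r, Cxcr2, Retnlg and G0s2. It also had to hold no UMI of C1qa, C1qb, C1qc, Csf1r, Cd3e, Cd3d or Cd3g, which mark macrophages, monocytes and T cells. The rule found 550 neutrophils among 23011 cells that passed the quality limits, or 2.39%.

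Neutrophils are short-lived granulocytes made in the bone marrow that follow chemokines into inflamed tissue through the receptor Cxcr2. They build their granules in order during maturation, so that primary granule genes are read in early precursors, secondary granule genes somewhat later, and few of either in mature cells. In tumors they are known as a source of IL-1 and of chemokines, and they can respond to type I interferon, the cytokine family that STING signaling induces.

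The 4 libraries, 1 per group, came from subcutaneous tumors of KPC cells, a line from a mouse pancreatic cancer model, grown in adult male C57BL/6 mice. The groups were Untreated, STING agonist (ADU-S100, injected once into the tumor), LTbR agonist (an activating antibody to the lymphotoxin-beta receptor, given repeatedly into the peritoneum) and STING and LTbR agonist, which received both. Tumors were pooled within a group before live CD45+ cells were sorted, so no value per animal exists, tumor cells and endothelium were gated out, and treatment cannot be told apart from library. With 1 library per group there was no replicate check on any difference between groups, and the intervals given here are exact 95% intervals that cover counting error only.

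The S100a8 and S100a9 values that chose the cells lay far above the limit of 10 in most of them. The median sum of both genes was 129 UMIs in the Untreated library, 136.5 with the STING agonist, 146 with the LTbR agonist and 126 with both agonists. Just inside the limit, sums of 10 to 12 UMIs were held by 2, 7, 4 and 1 neutrophils in the same order, and just outside it, sums of 7 to 9 by 2, 4, 2 and 2 cells. A further 10, 9, 12 and 2 cells missed the rule for holding only 1 of the 4 additional markers. The exclusions took more cells. In the Untreated library 69 of 183 cells that met the positive criteria were removed (37.7%), under the STING agonist 79 of 259 (30.5%), under the LTbR agonist 127 of 350 (36.3%) and under both 19 of 52 (36.5%), mostly through a UMI of Csf1r.

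Neutrophils were shallow cells beside the others. Their median depth was 2199.5, 2352, 2104 and 1794 UMIs in the Untreated, STING agonist, LTbR agonist and double-agonist libraries, against 7194, 7069.5, 5916.5 and 5924.5 UMIs in all other cells. The exclusions left out deeper cells. Those that met the positive criteria but were removed had medians of 3302, 3123, 4017 and 5306 UMIs in that order. Median mitochondrial UMIs were between 0.0782% and 0.148% per library in neutrophils and between 0.875% and 1.11% in the rest. Ribosomal protein genes gave 2.07% to 2.70% of the neutrophils' UMIs and 10.6% to 15.5% elsewhere. The neutrophil UMIs summed to 273094, 489113, 584908 and 64303, so values with both agonists rest on 33 cells and are the least precise. Barcode sequences shared between libraries made up 1.16% of all and 0.182% of those of the neutrophils. At least 2 markers of another cell class were found in 15, 14, 31 and 6 neutrophils of the 4 libraries in that order, most often macrophage markers in the first 3 libraries and dendritic cell markers in the last, and these cells were kept.

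The share of neutrophils differed between libraries by more than counting error in every pair compared. Neutrophils were 114 of 6783 cells in the Untreated library, or 1.68% (1.39% to 2.02%). The STING agonist library held 180 among 3748, or 4.80% (4.14% to 5.54%), and the LTbR agonist library 223 among 7147, or 3.12% (2.73% to 3.55%). With both agonists they were 33 of 5333 cells, or 0.619% (0.426% to 0.868%). The 4 intervals did not overlap, and the order from low to high was both agonists, Untreated, LTbR agonist and STING agonist.

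Each agonist alone therefore went with a higher share and the pair with a lower one. Relative to the Untreated library, neutrophils made up a share 2.86-fold as large under the STING agonist (bounds 2.05 to 3.99), 1.86-fold under the LTbR agonist (1.35 to 2.56) and 0.368-fold under both (0.212 to 0.625). Giving both agonists instead of 1 went with a share 0.129-fold as large when the STING agonist library was the base (0.077 to 0.210) and 0.198-fold when the LTbR agonist library was (0.120 to 0.318). The bounds set the low end of one interval against the high end of the other. A share of sorted cells does not separate fewer neutrophils from more of the other leukocytes.

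**Figure D1:**
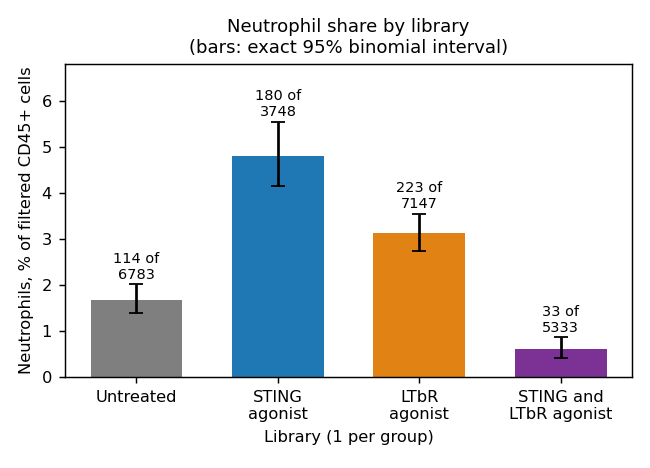
Neutrophils as a percent of filtered cells (colored bars, y axis linear from 0) in each of the 4 libraries (x axis), with exact 95% binomial intervals as error bars and the counts above them. The STING agonist library stands highest at 4.80% and the library with both agonists lowest at 0.619%, and no interval meets another.

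The chosen cells carried neutrophil genes that the rule did not use. Il1b, which encodes the inflammatory cytokine IL-1 beta, was found in 99.1% to 100% of neutrophils per library, and Hdc, the enzyme that makes histamine, in 90.6% to 97.0%. In T cells, which should lack both, the shares were 10.1% to 19.3% for Il1b and 2.54% to 2.97% for Hdc, at median depths of 4980 to 5729.5 UMIs. Il1b does not separate neutrophils from monocyte-like cells, 93.1% to 96.3% of which held it, although at 4256 to 5381 CPM against 16344 to 21308 CPM in neutrophils. Il1r2, the decoy receptor for IL-1, was found in 90.1% to 95.6% of neutrophils, although 14.4% to 19.4% of T cells held it too. The activating receptors Clec4d (84.8% to 91.2%) and Trem1 (69.5% to 77.2%) and the gelatinase Mmp9 (46.6% to 62.3%) were found in many of them, against 1.41% to 3.85% of T cells for these 3 genes. Ly6g, the surface antigen used to sort mouse neutrophils, was read in only 2.63% to 9.09% of them, and in 0.0563% to 0.269% of T cells.

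Against all other cells of the same library, no test was made, because the rule chose the cells on their expression. Hdc led the genes above the rest, with log2 ratios of 5.18, 4.87, 4.72 and 5.68 in the Untreated, STING agonist, LTbR agonist and double-agonist libraries, after 50 counts per 1000000 UMIs (CPM) were added to each value. Acod1, which makes the antimicrobial metabolite itaconate, was higher by 4.45 to 4.78 on the log2 scale, and Cxcl2, a chemokine that attracts neutrophils, by 4.08 to 4.40. Clec4d was higher by 3.14 to 3.73 and Lcn2, an iron-withholding protein of secondary granules, by 3.30 to 4.10. The lowest genes were those of MHC class II, with H2-Ab1 at log2 -5.29 to -3.90 and its invariant chain Cd74 at -5.17 to -3.29. Against monocyte-like cells (Csf1r and Ly6c2 positive cells of the same library), Hdc was higher by 4.6 to 5.4 and Lyz2, a lysozyme of monocytes and macrophages, lower, at -3.4 to -2.7.

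Granule genes differed in how widely they were found. Mpo, Elane and Ctsg, 3 of the primary granule enzymes, had 0 UMIs in every library. That allows up to 46.7 CPM in the smallest library (3 counts) and up to 5.13 CPM in the largest. Prtn3, another of these enzymes, had 2, 1, 0 and 0 UMIs in the Untreated, STING agonist, LTbR agonist and double-agonist libraries. All 7 primary granule genes measured summed to 3, 12, 15 and 0 UMIs. Lcn2, by contrast, was found in 29.8% to 36.8% of neutrophils. Most UMIs of Camp, Ngp and Ltf, which fill the secondary granules, sat in single cells, although Ltf was found in 1.75% to 7.22% of neutrophils per library. At least 10 UMIs of the 3 together were held by 0 of 114 neutrophils in the Untreated library, which allows a share of up to 2.63%, by 2 of 180 under the STING agonist, 1 of 223 under the LTbR agonist and 1 of 33 under both. Those 2 cells held 1370 of 1393 UMIs of the 3 genes in the STING agonist library, and the 1 cell held 1199 of 1217 with the LTbR agonist. Ratios of Camp, Ngp and Ltf between libraries therefore rest mostly on 1 or 2 cells and are not described further.

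**Figure D2:**
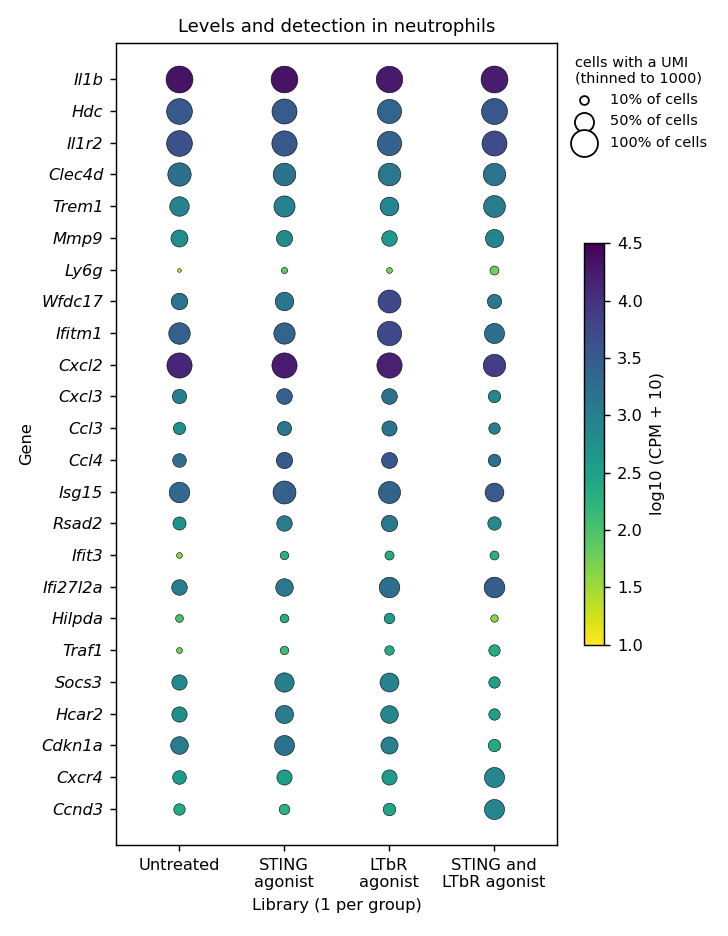
Neutrophils of the 4 libraries (x axis) and selected genes (y axis). The color of a circle gives the level over the summed neutrophils as log10 of CPM plus 10, and its area the share of neutrophils with a UMI after thinning to 1000 UMIs. Wfdc17 and Ifitm1 are darkest in the LTbR agonist column (5307 and 5341 CPM), Cxcl3 in the STING agonist column (2621 CPM), and the Cdkn1a circle is smallest with both agonists (20.7% of cells).

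The genes whose levels differed between libraries were then read from the summed UMIs of the neutrophils, with a gene tested when 1 of the 2 libraries held at least 30 UMIs and called when its log2 ratio, after adding 50 CPM, was at least 1 in size (past 2-fold). Of the genes tested, 3.56% (83 of 2331) were past 2-fold between the LTbR agonist and Untreated libraries, 67 higher (2.87%) and 16 lower (0.686%). For the STING agonist over Untreated it was 1.6% (32 of 2005), 21 higher (1.05%) and 11 lower (0.549%). For both agonists over Untreated it was 4.69% (59 of 1258), 15 higher (1.19%) and 44 lower (3.5%), and for both over the STING agonist 6.7% (133 of 1984), 29 higher (1.46%) and 104 lower (5.24%). Calls here are differences in size between single libraries. With both agonists the bounds excluded 0 for 23 of the 44 lower calls over Untreated and for 57 of the 104 over the STING agonist, so the others lie within counting error, while they excluded 0 for all higher calls.

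Wfdc17 set the LTbR agonist neutrophils apart. Wfdc17 (ENSMUSG00000069792, chr11:83703991-83706268 on the + strand of GRCm38) encodes a small secreted protein with a whey acidic protein domain, a fold found in protease inhibitors. Its level was 1373 CPM in the Untreated library, 1317 with the STING agonist, 5307 with the LTbR agonist and 1229 with both agonists. The LTbR agonist library was 3.86 times the Untreated level, a log2 ratio of 1.91 (1.72 to 2.11), and its bounds lay above 1, while the bounds of the ratios among the other 3 libraries included 0. More cells held it as well. It was found in 45.6%, 55.0%, 80.7% and 33.3% of neutrophils in that order, and in 37.5%, 47.2%, 72.6% and 27.6% after each cell was thinned to 1000 UMIs. T cells held Wfdc17 in 3.86% to 7.09% of cells before thinning and in 0.991% to 2.40% after it.

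The other cells did not show that order for Wfdc17. Among all other cells its level was 278, 323, 272 and 139 CPM, and among monocyte-like cells 632, 758, 615 and 432 CPM, in the Untreated, STING agonist, LTbR agonist and double-agonist libraries. Neutrophils held 2.5%, 6.4%, 18.7% and 1.5% of all Wfdc17 UMIs of these libraries. Without the 3 neutrophils that held most of it, the log2 ratio of the LTbR agonist over Untreated was 2.18, and without the cells that held at least 2 markers of another class it was 2.08. In the library with both agonists, 1 cell held 44.3% of the Wfdc17 UMIs.

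Ifitm1, an interferon-induced membrane protein that hinders virus entry, was the other neutrophil marker outside the rule that was past 2-fold with the LTbR agonist, among 28 tested. Its levels were 2545, 2425, 5341 and 1711 CPM in the order used above, and the LTbR agonist over Untreated log2 ratio was 1.05 (0.90 to 1.21). Again 1 library was high and the other 3 were within 2-fold of each other. In all other cells the LTbR agonist library was not the highest, at 2804, 2013, 1208 and 735 CPM. The median over the 28 markers was -0.14, against -0.00 over all genes tested, and no marker was past 2-fold lower.

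A few stress and hypoxia genes were also highest with the LTbR agonist, beside 2.87% of all genes past 2-fold higher. Hsp90aa1, an inducible chaperone, stood at 234, 305, 691 and 77.8 CPM, and the LTbR agonist was above Untreated by 1.38 on the log2 scale (0.95 to 1.82). Unlike Wfdc17, Hsp90aa1 had the same highest library in all other cells, at 223, 264, 322 and 284 CPM, a ratio of 0.45. Hspa1a and Hspa1b, heat shock genes so alike that reads may be split between them, were above by 1.18 and 1.44, and these were the only 3 of 19 immediate early and heat shock genes past 2-fold, at a median of 0.12. Hilpda, which promotes lipid storage under low oxygen, was at 98.9, 198, 364 and 31.1 CPM, highest with the LTbR agonist and lowest with both. In all other cells it was at 240, 260, 258 and 200 CPM. T cells held Hilpda in 33.9% to 42.6% of cells, against 6.06% to 21.5% of neutrophils. Hilpda (log2 1.48) and Egln3 (1.12), an oxygen-sensing hydroxylase, were the 2 of 26 glycolysis and hypoxia genes past 2-fold, and the median over the list was 0.23.

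Several other genes were past 2-fold in the LTbR agonist library. Traf1, an adaptor of TNF receptors and a target of NF-kB, was at 47.6, 112, 210 and 218 CPM. With both agonists it had too few UMIs to be tested against Untreated. T cells held Traf1 in 52.4% to 62.3% of cells, at 187 to 232 CPM. The log2 ratio of Traf1 was 1.42 (0.77 to 2.00) for the LTbR agonist over Untreated. Traf1 was the single member past 2-fold among 17 LTbR and NF-kB pathway genes tested, whose median was -0.24. Csf2rb2, a subunit of the IL-3 receptor, was at 29.3, 59.3, 147 and 31.1 CPM (LTbR agonist log2 1.31). On the lower side, Thbs1, the matrix protein thrombospondin-1, was at 1640, 2100, 727 and 1555 CPM (log2 -1.12, -1.38 to -0.86), and Nr4a1, an immediate early nuclear receptor, at 897, 542, 410 and 855 CPM (-1.04). Thbs1 was lower with the LTbR agonist in all other cells as well (654 to 329 CPM, -0.89) and in monocyte-like cells (1415 to 887 CPM, -0.64), whereas Nr4a1 in all other cells was at 0.06.

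Markers of other cell classes also moved with the LTbR agonist library. The 8 monocyte markers summed to 84 CPM in Untreated neutrophils, 200 with the STING agonist, 518 with the LTbR agonist and 156 with both, with 5, 7, 7 and 4 of the 8 detected and Csf1r at 0 by the rule. The 8 NK cell markers summed to 18, 31, 215 and 16 CPM, with Ncr1 and Klrb1c at 0 in the Untreated and double-agonist libraries, and the 10 T cell markers to 51, 18, 174 and 47 CPM, with Cd3e, Cd3d and Cd3g at 0 by the rule. The 12 macrophage markers did not follow, at 330, 225, 311 and 218 CPM. Cd74, Bst2 and Ccl5, which these other classes express, had log2 ratios of 1.10, 1.27 and 1.74 for the LTbR agonist over Untreated. When cells with at least 2 markers of another class were left out, the ratios were -0.59, -0.34 and -0.47, and 46 genes instead of 83 were past 2-fold.

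Several chemokine genes were higher in the STING agonist neutrophils than in the Untreated ones. Of 8 chemokines tested, 3 were past 2-fold higher and none lower, beside 1.05% of all genes past 2-fold higher. Their median log2 ratio was 0.72 against 0.01 over all genes. Cxcl3, which like Cxcl2 attracts neutrophils through Cxcr2, was at 1003, 2621, 1595 and 715 CPM in the Untreated, STING agonist, LTbR agonist and double-agonist libraries. The STING agonist was above Untreated by 1.34 on the log2 scale (1.10 to 1.59), 2.61 times the level. Cxcl3 was read in 31.6%, 39.4%, 35.0% and 21.2% of neutrophils and in 0.516% to 1.18% of T cells.

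Ccl3 and Ccl4, chemokines that attract monocytes and lymphocytes, were high with either agonist alone. Ccl3 was at 557, 1372, 1470 and 1026 CPM, a log2 ratio over Untreated of 1.23 (0.91 to 1.55) for the STING agonist and of 1.33 (1.02 to 1.64) for the LTbR agonist. Ccl4 was at 1706, 3337, 3713 and 1664 CPM, with ratios of 0.95 and 1.10. The library with both agonists lay near the Untreated one for Ccl4, and between Untreated and the single agonists for Ccl3. T cells are a source of both, and held Ccl3 in 32.8%, 22.2%, 20.2% and 20.2% of cells against 26.3%, 37.2%, 39.0% and 27.3% of neutrophils. For Ccl4 it was 50%, 37.9%, 34.7% and 36.6% of T cells (2072, 1319, 990 and 1118 CPM) against 30.7%, 43.3%, 43.9% and 30.3% of neutrophils, so the T cell values were highest in the Untreated library. The third chemokine past 2-fold with the STING agonist, Ccl22, was held by 1 cell alone. Cxcl1 was found in 1 Untreated cell and in no other neutrophil.

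Cxcl2 was the chemokine found in most neutrophils. Its levels were 13281, 17325, 15310 and 7387 CPM. It was found in 88.6%, 91.7%, 91.0% and 78.8% of neutrophils and in 3.77% to 6.99% of T cells. Although neutrophils were few, they held 10.2%, 27.2%, 18.9% and 3.1% of all Cxcl2 UMIs of the 4 libraries, and 12.5%, 49.9%, 20.9% and 4.5% of all Cxcl3 UMIs.

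Both genes have in their promoters the letters GGGA and CC with any 4 bases between them, a pattern of NF-kB sites, searched on both strands. The 160 bases before each gene start (RefSeq, GRCm38.p6, + strand, chr5:90903739-90903898 for Cxcl2 and chr5:90785941-90786100 for Cxcl3) are shown because these genes lead the chemokine differences, with the matching letters in capitals. In each, the matches on the 2 strands overlap.
Cxcl2: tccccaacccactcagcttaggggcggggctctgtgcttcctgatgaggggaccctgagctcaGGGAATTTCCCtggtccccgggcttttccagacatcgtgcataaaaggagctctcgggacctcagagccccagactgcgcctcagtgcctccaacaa
Cxcl3: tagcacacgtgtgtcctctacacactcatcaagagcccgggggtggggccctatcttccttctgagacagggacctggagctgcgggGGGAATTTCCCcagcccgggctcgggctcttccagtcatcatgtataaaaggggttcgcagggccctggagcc
The pattern occurred in the 250 bases before the start in 17.6% of 32851 promoters and in 5 of 9 promoters of the chemokine list (55.6%). A match says only that the letters are there.

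Most interferon-stimulated genes were above the Untreated library by less than 2-fold. With the STING agonist, all 32 tested type I interferon-stimulated genes had a log2 ratio above 0, yet only Ifit3 was past 2-fold, and the median was 0.44 against 0.01 over all genes. With the LTbR agonist, 6 of 34 were past 2-fold higher and none lower, beside 2.87% of all genes past 2-fold higher. The median was 0.51 against -0.00, and 8 of the 34 were below 0 (lowest -0.77). Of the 6, Bst2 was at -0.34 without cells holding 2 markers of another class. Ifi203, also of the 6, came within 2-fold in 6 of 11 alternatives (lowest 0.06). With both agonists over Untreated it was 2 of 22 higher, beside 1.19% of all genes, and none lower. The median was 0.54 against -0.05, with 5 of the 22 below 0 (lowest -0.79). Ifi47, 1 of the 2, came within 2-fold in 5 of 11 alternatives (lowest 0.17). All 3 comparisons share the Untreated library. Between both agonists and the STING agonist, where the Untreated library is not used, 1 of 32 was past 2-fold higher and the median was -0.10 against -0.01.

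Rsad2, which encodes the antiviral enzyme viperin, was at 502, 1049, 1209 and 684 CPM. Its log2 ratios over Untreated were 0.99 (0.65 to 1.34) for the STING agonist, 1.19 (0.87 to 1.52) for the LTbR agonist and 0.41 (-0.23 to 1.04) for both. Ifit3, which binds foreign RNA with its relatives and has a near copy that can share its reads, was at 33, 182, 221 and 171 CPM, with ratios of 1.48 for the STING agonist and 1.71 for the LTbR agonist. With both agonists it had too few UMIs to be tested. The Untreated library was low for both genes. Ifi27l2a, a small mitochondrial interferon-induced protein, had another order, at 1051, 1233, 1759 and 2893 CPM, and the library with both agonists was above Untreated by 1.42 (1.05 to 1.79) and above the STING agonist by 1.20 (0.88 to 1.51). Isg15, a ubiquitin-like modifier, stayed within 2-fold at 2157, 2836, 2501 and 3219 CPM. T cells held Ifi27l2a in 70.6% to 77.4% of cells and Rsad2 in 10.1% to 12.2%, against 45.6% to 66.7% and 35.1% to 44.8% of neutrophils. Ifit3 was held by 17.7%, 16.8%, 15.4% and 11.6% of T cells, against 6.14%, 11.1%, 16.6% and 24.2% of neutrophils. The Untreated neutrophils held 9 UMIs of Ifit3, and their 33 CPM lay below the 65.8 CPM of Untreated T cells.

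The promoters of Rsad2 and Ifit3 hold 2 runs of GAAA with any 2 bases between them, the core of the interferon-stimulated response element, searched on both strands. Here it is read on the opposite strand, as 2 runs of TTTC. The 160 bases before each start (RefSeq, GRCm38.p6, chr12:26456453-26456612 on the - strand for Rsad2 and chr19:34583369-34583528 on the + strand for Ifit3) are printed for the 2 members described above, with the match in capitals.
Rsad2: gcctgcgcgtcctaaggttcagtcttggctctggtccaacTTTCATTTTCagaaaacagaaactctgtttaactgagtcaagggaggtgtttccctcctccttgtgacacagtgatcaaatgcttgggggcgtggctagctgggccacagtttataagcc
Ifit3: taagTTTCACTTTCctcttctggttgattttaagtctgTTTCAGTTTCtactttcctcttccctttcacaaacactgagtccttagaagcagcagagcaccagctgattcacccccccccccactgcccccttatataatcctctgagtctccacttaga
Rsad2 has 1 match and Ifit3 has 2. The pattern occurred in 2.98% of 32851 promoters of 250 bases and in 15 of 31 promoters of the interferon list (48.4%).

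Other lists moved little with the STING agonist. None of 17 interferon-gamma-response genes was past 2-fold, although all 17 were above 0, at a median of 0.34. None of 24 glycolysis and hypoxia genes (median 0.32) and none of 29 neutrophil markers outside the rule (0.04) was past 2-fold. Single genes past 2-fold included Upp1, which breaks down uridine, at 146, 438, 339 and 218 CPM (STING agonist log2 1.31, 0.79 to 1.83), and Tnfaip6, a secreted hyaluronan-binding protein, at 54.9, 225, 138 and 31.1 CPM (1.39). Grk5, a kinase that silences chemoattractant receptors, was lower, at 190, 47.0, 68.4 and 93.3 CPM (-1.31, -1.91 to -0.67).

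**Figure D3:**
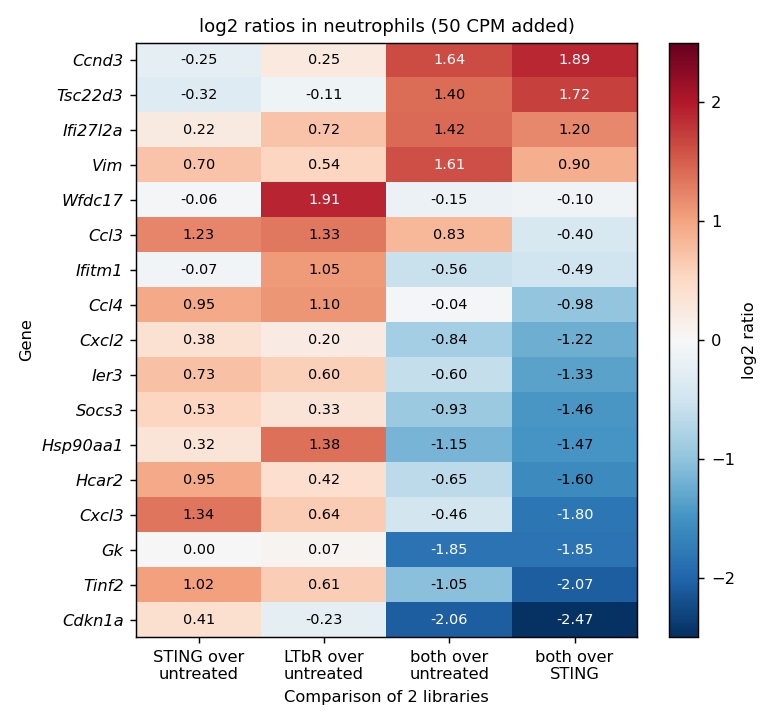
Log2 ratios, after adding 50 CPM, of 17 genes (y axis) for the 4 comparisons (x axis). Each gene stayed past 2-fold in 1 comparison or more under every alternative that tested it. In those comparisons Ccnd3, Tsc22d3 and Vim had too few UMIs for the alternative that required at least 100. Red is higher and blue lower, and each square prints its value. Wfdc17 is red in the LTbR agonist column alone (1.91), Ccl3 in both single-agonist columns (1.23 and 1.33), and Cdkn1a is the deepest blue in both columns of the double-agonist library (-2.06 and -2.47).

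With both agonists, the chemokines were lower than with the STING agonist alone. All 8 tested had a ratio below 0, 3 of them past 2-fold, beside 5.24% of all genes past 2-fold lower. Their median was -0.91 against -0.01 over all genes. Cxcl3 was at -1.80 (-2.30 to -1.33), Cxcl2 at -1.22 (-1.39 to -1.06), and Ccl22, found in 1 STING agonist cell, had 0 UMIs. Against the Untreated library the same 33 cells were closer, since none of 6 chemokines was past 2-fold and the median was -0.25, with Cxcl2 at -0.84 (-1.02 to -0.67). In all other cells Cxcl2 was also lower with both agonists than with the STING agonist, at 391 and 774 CPM (-0.90), and Cxcl3 was at 25.8 and 44.0 CPM (-0.31).

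Cdkn1a had the lowest ratio of the genes with at least 100 UMIs, found in at least 10% of neutrophils, in both comparisons of the double-agonist library. It encodes p21, an inhibitor of the cell cycle that p53 and many stresses induce. Its levels were 1128, 1515, 956 and 233 CPM, and it was found in 57.0%, 67.2%, 52.0% and 21.2% of neutrophils against 28.6% to 29.4% of T cells. The log2 ratio of both agonists was -2.06 (-2.86 to -1.28) over Untreated and -2.47 (-3.22 to -1.75) over the STING agonist, so the bounds lay beyond 2-fold in both. The T cell shares of Cdkn1a were nearly the same in all 4 libraries. In all other cells Cdkn1a was also lowest with both agonists, in smaller steps, at 836, 806, 807 and 594 CPM (-0.41 over the STING agonist). In monocyte-like cells that ratio was -0.12.

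Further genes of different roles were low with both agonists. Gk, glycerol kinase, was at 355, 356, 376 and 62.2 CPM (-1.85 over the STING agonist, -2.79 to -0.76). Hcar2, a receptor for ketone bodies and niacin, was at 564, 1135, 771 and 342 CPM (-1.60). Socs3, the brake on IL-6 and G-CSF receptor signaling, was at 699, 1030, 889 and 342 CPM (-1.46, -2.15 to -0.81). Tinf2, a telomere protein, was at 150, 356, 255 and 46.7 CPM (-2.07), and Ier3, an early stress response gene, at 1201, 2030, 1852 and 778 CPM (-1.33). For Gk the other 3 libraries lay close together, whereas for Hcar2, Tinf2 and Ier3 the STING agonist library was also the highest of the 4. Ier3 was as much lower in all other cells (-1.31 over the STING agonist, 440 to 147 CPM) and in monocyte-like cells (-1.17), while Gk in all other cells was at -0.05, Tinf2 at -0.19, Hcar2 at -0.40 and Socs3 at -0.64.

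Some genes were higher with both agonists than in any other library, several of them in other cells too. Ccnd3, a D-type cyclin, was at 216, 174, 267 and 778 CPM, a log2 ratio of 1.64 (0.93 to 2.33) over Untreated and of 1.89 (1.24 to 2.51) over the STING agonist. T cells held it in 68.3% to 77.3% of cells, and all other cells had the same highest library in smaller steps, at 172, 222, 247 and 300 CPM (0.36 over the STING agonist). Tsc22d3, a glucocorticoid-induced leucine zipper protein, was at 157, 117, 142 and 498 CPM, 1.72 over the STING agonist, and in all other cells at 57.0, 95.6, 84.9 and 136 CPM (0.35). Cxcr4, the receptor that holds neutrophils in the bone marrow and returns with age, was at 384, 339, 380 and 746 CPM (1.03), and 7 of 12 alternatives brought it within 2-fold (lowest 0.71). Vim, an intermediate filament protein, was at 150, 276, 241 and 560 CPM (1.61 over Untreated). Ltb, which encodes the LTbR ligand subunit lymphotoxin beta, was at 194, 200, 157 and 451 CPM, with a ratio of 1.04 (0.21 to 1.84) over Untreated that 6 of 11 alternatives brought within 2-fold (lowest 0.64). T cells held Ltb in 73.4% to 82.6% of cells, at 464 CPM with both agonists.

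The group lists show how far this went with both agonists over the STING agonist. Of 21 tumor-associated neutrophil genes, 5 were past 2-fold lower (Ngp, which rests on single cells, Hilpda, Hcar2, Mif and Spp1) and none higher, at a median of -0.61. Of 24 glycolysis and hypoxia genes, 3 were lower (Hilpda, Ero1l and P4ha1) at a median of -0.26, and of 18 immediate early and heat shock genes, 4 were lower (Hsp90aa1, Ier3, Dnajb1 and Hspa1b) at -0.11. P4ha1 and Dnajb1 had 0 UMIs with both agonists, and their bounds included 0. None of 17 interferon-gamma-response genes was past 2-fold (median -0.32). These shares stand beside 5.24% of all genes past 2-fold lower.

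The 2 agonists' own pathways were thinly measured in neutrophils. Ltbr, the receptor the antibody targets, gave 5, 18, 14 and 1 UMIs in the 4 libraries, or 18.3, 36.8, 23.9 and 15.6 CPM, against 28.5 to 40.6 CPM in all other cells. Tmem173, which encodes STING, gave 0, 3, 8 and 0 UMIs, against 63.4 to 86.8 CPM elsewhere. In the STING agonist library that is 6.13 CPM and in the LTbR agonist library 13.7 CPM, and the 0 of the Untreated library allows up to 11.0 CPM. No UMI of Ifnb1, the interferon that STING signaling induces first, was found in any neutrophil. Of the other STING pathway genes tested, none of 4 to 6 was past 2-fold in any comparison.

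Receptors and survival genes had few calls, beside 5.24% of all genes past 2-fold lower for both agonists over the STING agonist and 3.5% over Untreated. Of 8 chemoattractant receptors tested between both agonists and the STING agonist, 1 was past 2-fold higher (Cxcr4) and 1 lower, Ltb4r1, the receptor for leukotriene B4, at 110, 131, 85.5 and 31.1 CPM. None was past 2-fold in the 3 comparisons over Untreated. Ccr1, which binds Ccl3, was at 919, 1114, 1159 and 840 CPM. Of 11 survival and death genes, Bcl2l1, which protects mitochondria from death signals, was past 2-fold lower with both agonists than with the STING agonist, at 165, 247, 217 and 62.2 CPM (-1.41, -2.37 to -0.29), at a list median of 0.01. Over Untreated, Bcl2a1a, a relative with near copies that can share its reads, was past 2-fold lower with both agonists (-1.14, -2.09 to 0.22), and 8 of 10 members were below 0 at a median of -0.24. Mcl1, on whose product neutrophils depend for survival, stayed within 2-fold at 2516, 2993, 2720 and 2395 CPM.

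Of Gpx1, Ncf1 and Ptgs2, only Gpx1 was past 2-fold, and the others came near it. Gpx1, which reduces peroxides, was at 597, 376, 556 and 980 CPM, and both agonists were above the STING agonist by 1.27 on the log2 scale (0.73 to 1.80). Ncf1, a cytosolic subunit of the NADPH oxidase, was at 612, 403, 282 and 404 CPM, just short of 2-fold with the LTbR agonist (-0.99, -1.39 to -0.60). Ptgs2, the inducible cyclooxygenase, was at 2739, 2102, 1516 and 1944 CPM (-0.83, -1.03 to -0.64). For Ncf1 and Ptgs2 the Untreated library was the highest of the 4 and the LTbR agonist library the lowest.

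Malt1 and Sema4d, both known from lymphocytes, were lower with the STING agonist. Malt1, a protease of NF-kB activation, was at 450, 180, 217 and 202 CPM (-1.12, -1.60 to -0.64), with 1 cell holding 33.3% of its UMIs in the Untreated library. Sema4d, a semaphorin shed from leukocytes, was at 447, 188, 294 and 389 CPM (-1.06, -1.53 to -0.58). Malt1 was high in the Untreated library alone, whereas Sema4d was low with the STING agonist. Malt1 came within 2-fold in 4 of 12 alternatives and Sema4d in 3, and the same held for Thbs1 and Nr4a1 with the LTbR agonist (3 of 12 each).

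The lists of growth factor signaling and of antigen presentation had few calls. With the LTbR agonist, Csf2rb2 was the single member past 2-fold of 13 growth factor and SOCS genes, at a median of -0.00. With both agonists over the STING agonist, Socs3 was the single one of 12, lower, at a median of -0.54. Of 10 antigen presentation genes, H2-Aa and Cd74 were past 2-fold higher with the LTbR agonist (median 0.34), beside 2.87% of all genes. Cd74 was lower with both agonists than with the STING agonist (median -0.28), beside 5.24% of all genes. H2-Aa came within 2-fold in 5 of 12 alternatives (lowest 0.32). Without cells holding 2 markers of another class, Cd74 was at -0.59 with the LTbR agonist. Without the 3 cells with most of it, Cd74 was at 0.15 for both agonists over the STING agonist. Of 13 matrix-remodeling genes none was past 2-fold with the STING agonist (median 0.19).

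IL-1 genes were within 2-fold. No member of the list of IL-1 and other inflammatory cytokines was past 2-fold in any of the 4 comparisons, with medians of 0.03, -0.09, 0.01 and -0.02 for the STING agonist, LTbR agonist and both agonists over Untreated and for both over the STING agonist. Il1b itself was at 21029, 21308, 18487 and 16344 CPM, and Il1rn, its natural antagonist, at 934, 1390, 1216 and 1477 CPM. Suppression-related genes and Fc receptors and adhesion molecules had no member past 2-fold either. The suppression-related Cd274, which encodes PD-L1, was at 795, 1161, 940 and 809 CPM.

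The genes of the rule are given as description only. S100a8 was at 32648, 31569, 29707 and 38707 CPM, S100a9 at 40510, 41399, 45404 and 48038 CPM, and Csf3r, the G-CSF receptor, at 2007, 1842, 1713 and 2224 CPM. Retnlg, a resistin-like secreted protein, ranged more widely, at 1040, 2458, 1876 and 3670 CPM. Neutrophils held 58.0% to 69.3% of each library's S100a8 UMIs, the remainder lying in cells outside the rule.

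The effect of adding the LTbR agonist was set side by side without and with the STING agonist, 2 comparisons that have no library in common. Of 1842 genes tested in both, 1782 were found in at least 10% of the neutrophils of the higher library in each comparison. Of these, 5 were past 2-fold in opposite directions and 0 in the same direction. Few genes were past 2-fold in either comparison. Over all genes tested, the LTbR agonist over Untreated had 2.87% higher and 0.686% lower. Both agonists over the STING agonist had 1.46% higher and 5.24% lower. How many genes would meet by chance was not tested. Hsp90aa1 was at 1.38 for the LTbR agonist over Untreated and at -1.47 for both agonists over the STING agonist, and Hilpda at 1.48 and -1.61. Fnip2, a folliculin partner in nutrient sensing, was at 1.36 and -1.18, Tmsb10, an actin-binding peptide, at 1.38 and -1.35, and Cd74 at 1.10 and -1.13. With both agonists Fnip2 had so few UMIs that its -1.18 lies within counting error, and Hilpda had 2 UMIs (-2.44 to -0.38). The Cd74 values rested on few cells, since without the 3 cells with most of it they were 0.39 and 0.15. For Tmsb10 with the LTbR agonist, 5 of 12 alternatives came within 2-fold, the lowest at 0.11 without cells holding 2 markers of another class. The difference between the 2 ratios was not tested.

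**Figure D4:**
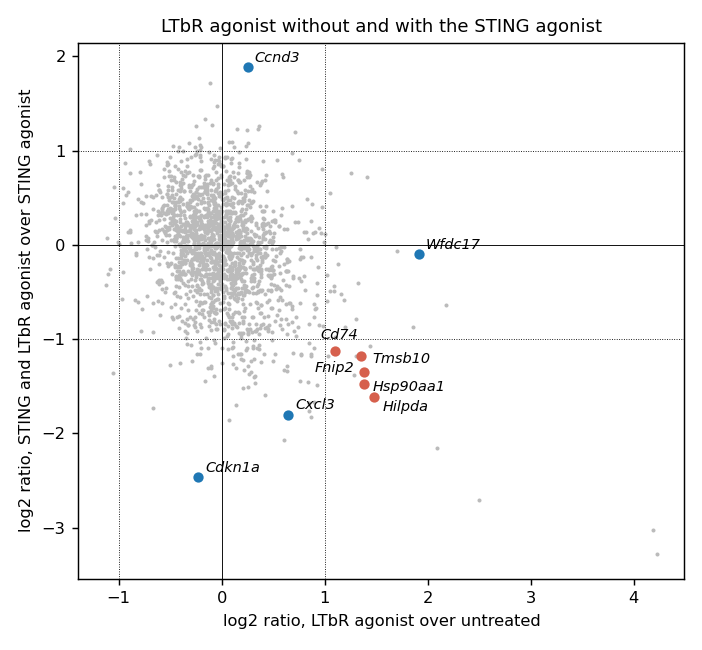
Log2 ratio of the LTbR agonist over Untreated (x axis) against that of both agonists over the STING agonist (y axis), 1 point per gene tested in both, after adding 50 CPM, with dotted lines at 2-fold. The red points Hsp90aa1, Hilpda, Fnip2, Tmsb10 and Cd74 lie at 1.10 to 1.48 on x and at -1.61 to -1.13 on y, blue points name other genes described, and gray points farther out at the lower right, such as Camp and Ngp, rest on under 10% of cells. The y value of Fnip2 lies within counting error.

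Cells of the same library varied widely. After thinning to 1000 UMIs, which kept 104, 176, 208 and 29 neutrophils, the summed UMIs of Cxcl2, Cxcl3, Ccl3 and Ccl4 per cell had medians of 12, 16, 14 and 5 in the Untreated, STING agonist, LTbR agonist and double-agonist libraries. The summed UMIs of 38 interferon-stimulated genes had medians of 7.5, 12.5, 12 and 13. The tenth of cells richest in chemokine UMIs held 35.3% to 40.1% of them, and the tenth richest in interferon-stimulated UMIs 29.3% to 38.5%. For Wfdc17 the median was 0, 0, 3 and 0 UMIs per cell, and 62.5%, 52.8%, 27.4% and 72.4% of cells held none. At this depth the LTbR agonist library was the only 1 in which it was found in most cells. Before thinning, 55.0% of STING agonist neutrophils held it as well.

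**Figure D5:**
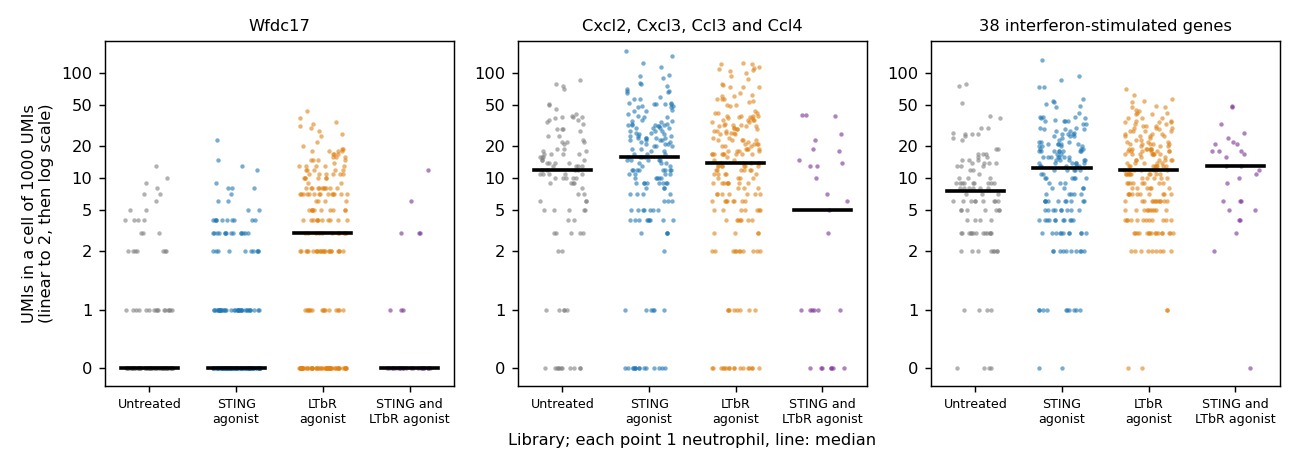
UMIs per neutrophil after thinning each cell to 1000 UMIs (y axis, linear up to 2 and logarithmic above) for Wfdc17, for Cxcl2, Cxcl3, Ccl3 and Ccl4 together, and for 38 interferon-stimulated genes together, by library (x axis), each point 1 cell and each line the median. The Wfdc17 median is 3 with the LTbR agonist and 0 elsewhere, the chemokine median is lowest with both agonists (5), and the interferon median is lowest in the Untreated library (7.5).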

How the data were processed

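Single-cell RNA sequencing covered 4 libraries of pooled subcutaneous KPC tumors, 1 per group. The authors made the deposited values, raw UMI counts per gene and cell, with Cell Ranger 7.1.0 on mm10, and all 4 libraries came in 1 matrix of 24839 barcodes and 32285 genes. Which of the study's single-cell experiments they belong to is not given in the sources used here. The libraries held 32529174 to 60770280 UMIs, and 3748 to 7147 cells each passed the limits of 300 to 5000 genes and at most 6% mitochondrial UMIs.

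From these counts, UMIs were summed over the neutrophils of a library and scaled to CPM. Shares have exact binomial and sums exact Poisson 95% intervals, and the bounds of a ratio set opposite ends against each other. Monocyte-like cells held a UMI of Csf1r and at least 2 UMIs of Ly6c2, and T cells at least 2 UMIs of Cd3e, Cd3d and Cd3g. Doublets were not called or removed, and the study states no removal. No p-value was computed, since each group is 1 library.

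The members and the 31 gene lists were chosen with earlier results of these data known. The genes open to naming were the listed members with at least 30 UMIs in 1 library, up to 4 past 2-fold per direction and list, the 10 highest and 10 lowest ratios of each comparison among genes found in at least 10% of the neutrophils of the higher library, and the 15 genes highest against other cells and against monocyte-like cells. Genes set by single cells, and those that add no value, were left out after their values were seen. Alternatives were other rule limits, denominators, pseudocounts, count minimums, scalings, thinning and cells left out, and those that left out the cells with most UMIs were chosen after seeing the data. The intervals and bounds were tested on simulated data. Of 32285 gene identifiers, 32158 matched the GENCODE annotation of GRCm38, and promoter sequences came from RefSeq (GRCm38.p6). Python 3.11.15, NumPy 2.4.6, SciPy 1.17.1, pandas 2.3.3 and matplotlib 3.10.9 were used.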

Additional observations from a re-analysis of the deposited data

Results flagged for a closer look

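Adding the LTbR agonist went with a higher neutrophil share in the absence of the STING agonist (1.86 times the Untreated share) and with a lower one in its presence (0.129 times the share with the STING agonist). The opposite directions drew attention to it, each arm is 1 library, and the difference was not tested.

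The same pair of comparisons gave 5 genes past 2-fold in opposite directions, also not tested. Over all genes tested, 2.87% were past 2-fold higher without the STING agonist and 5.24% lower with it. The log2 ratios without and with the STING agonist were 1.10 and -1.13 for Cd74, 1.36 and -1.18 for Fnip2, 1.48 and -1.61 for Hilpda, 1.38 and -1.47 for Hsp90aa1, and 1.38 and -1.35 for Tmsb10. Without the neutrophils that held 2 markers of another class, the first value was -0.59 for Cd74 and 0.11 for Tmsb10. The second value of Fnip2 lay within counting error, and that of Hilpda rested on 2 UMIs with both agonists.

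Among barcodes outside the quality limits, which no comparison used, the neutrophil rule also found 2 with the STING agonist, 5 with the LTbR agonist and 1 with both, against 0 in the Untreated library.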

How the results depend on the processing

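All alternatives to the rule and to the denominator kept the direction of each share ratio and stayed within its interval, at 2.56 to 3.55 for the STING agonist over Untreated, 1.80 to 2.11 for the LTbR agonist, 0.333 to 0.525 for both agonists, 0.113 to 0.175 for both over the STING agonist and 0.185 to 0.268 for both over the LTbR agonist. No paired analysis was possible because each group is 1 library and the labels give no shared replicate numbers. No replicate could be left out. The 33 neutrophils with both agonists and their 64303 UMIs limit the precision most, and low genes are set by the pseudocount.

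Counts of genes past 2-fold were 32, 83, 59 and 133 for the STING agonist, LTbR agonist and both agonists over Untreated and for both over the STING agonist. In that order they were 95, 195, 117 and 307 with 10 CPM added, 6, 13, 7 and 18 with 200 CPM, and 11, 36, 7 and 48 with at least 100 UMIs, which tests fewer genes. With no filter on low counts both agonists over Untreated gave 188. Thinning gave 39 for the LTbR agonist and 27 for both agonists over Untreated, and at least 3 further markers gave 209 for both over the STING agonist. For the LTbR agonist, 46 remained in number without cells holding 2 markers of another class and 40 without the 10% of cells with the most UMIs, an alternative chosen after seeing the data. Median-of-ratios scaling moved the median of all genes to -0.20 in both comparisons of the double-agonist library, and the higher share of calls went from 25.4% to 11.8% over Untreated (10 higher, 75 lower) and from 21.8% to 5.88% over the STING agonist (10 higher, 160 lower), and from 65.6% to 76.3% for the STING agonist over Untreated (29 higher, 9 lower). Of the named genes past 2-fold, 5 of 41 for the LTbR agonist and 2 of 21 for the STING agonist stayed so under every alternative that tested them. For both agonists it was 5 of 25 over Untreated and 10 of 41 over the STING agonist. The alternative with at least 100 UMIs tested only 63 of the 133 ratios of named genes.

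Some genes turned direction, and the cause was not tested. For both agonists over the STING agonist, Cd74 was 0.040 by the mean of CPM per cell, 0.15 without the 3 cells with most of it and 0.46 without the 10% of cells with the most UMIs, where Camp was 0.83 and Ngp 2.22. For the LTbR agonist over Untreated, Cd8b1 was -0.12 after thinning. With at least 3 further markers Ccl5 was -0.57, Fscn1 -0.14 and Gzma -0.14. Without cells holding 2 markers of another class Bst2 was -0.34, Ccl5 -0.47, Cd74 -0.59 and Cd8b1 -0.35. Without the 10% of cells with the most UMIs Bst2 was -0.41, Cd74 -0.43 and Cd8b1 -0.25, and for the STING agonist over Untreated Itgav was 0.042 and Ngp -0.055.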
